A study of Mus musculus with 6 samples.

Results

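The IL-6 family of cytokines and their receptor chains was followed in mouse skin fibroblasts (MSFs) made to senesce with tamoxifen (TAM). Its members were taken by name from the table of all genes and were 5 cytokines (Il6, Il11, Lif, Clcf1 and Ctf1) and 5 receptor chains (Il6st, Osmr, Lifr, Il6ra and Il11ra1), 10 of the 22162 genes listed. The MSFs came from the dorsal skin of a female FASST mouse on an FVB/N background, which carries a TAM-dependent Cre-ERT2 driven by the pro-alpha 2(I) collagen promoter and a lox-stop-lox p27Kip1 allele at the ROSA26 locus. The sequenced poly(A) RNA came from 3 TAM samples (10 µM for 48 h), which the labels call senescent, and 3 samples given ethanol (EtOH) as vehicle, which they call non-senescent. Cells of both groups carried the same alleles and were kept at 3% oxygen, so that TAM itself and the activated p27Kip1 cannot be told apart here. The line is described as isolated from 1 mouse and the labels do not say that samples were separate cultures, so p-values measure only the spread between these samples.

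The cytokines of this family share a receptor chain, gp130, which is encoded by Il6st and carries the signal into the cell through JAK kinases and the transcription factor STAT3. IL-6 and IL-11 reach gp130 through ligand-binding alpha chains (Il6ra and Il11ra1), whereas LIF, cardiotrophin 1 (Ctf1) and cardiotrophin-like cytokine factor 1 (Clcf1) bring gp130 together with the LIF receptor, and oncostatin M uses the oncostatin M receptor, Osmr. IL-6 is a canonical factor of the senescence-associated secretory phenotype (SASP), and fibroblasts are a common source of IL-6, IL-11 and LIF in skin.

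Values are the authors' normalized counts per gene, given below for replicates 1, 2 and 3 in that order. Their sums per library lay between 14952367 and 17314953, and the smallest values above 0 between 0.36 and 0.89 normalized counts, so that values of a few normalized counts rest on few reads. Differences in log2(normalized counts + 1) were tested with limma over the 11877 genes that reached 1 c.p.m. (16.2 normalized counts) in at least 3 of the 6 libraries, and a gene was called at a Benjamini-Hochberg adjusted p under 0.05 over all of them. Same-numbered libraries deviated together from their group means, so values with the replicate number as a block are given wherever they changed a call. Cdkn1b, the gene for p27Kip1, had 1427, 3074 and 1853 normalized counts in EtOH and 1699, 1519.85 and 1629.97 in TAM (log2 fold change −0.32, adjusted p = 0.677). The activated allele is a transgene, and whether its reads were counted on this gene is not given in the sources used here, so the row neither supports nor contradicts the labels. A lower value can mean fewer cells of a type or less RNA per cell, which cannot be told apart in bulk RNA.

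TAM MSFs had more Il6 and Osmr RNA than EtOH MSFs in every library, while Il6st was lower in TAM in each same-numbered pair. All 10 members passed the filter on low values, although Il6 did so only through its TAM libraries. Il11 was over the filter in 1 EtOH and 3 TAM libraries, and Ctf1 in 1 EtOH and 2 TAM libraries. At an adjusted p under 0.05, 0 of 10 members were higher and 0 lower without the block, against 0.168% and 0.0758% of all genes tested. With the replicate block 1 member, Il6, was higher and 0 were lower, against 1.00% and 0.615% of all genes. At an unadjusted p under 0.05, 2 members (Il6 and Osmr) were higher and 0 lower, where 6.67% of all genes were higher and 6.70% lower. With the block 3 members (Il6, Il11 and Osmr) were higher and 1 (Il6st) lower, where 8.64% of all genes were higher and 8.32% lower. The TAM values lay wholly above the EtOH values for 2 members, Il6 and Osmr, as they did for 9.19% of all genes, and wholly below for 0 members, against 11.4% of all genes. Log2 fold changes were positive for 6 members and negative for 4, with a median of 0.42 against −0.03 over all genes tested.

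**Figure D1:**
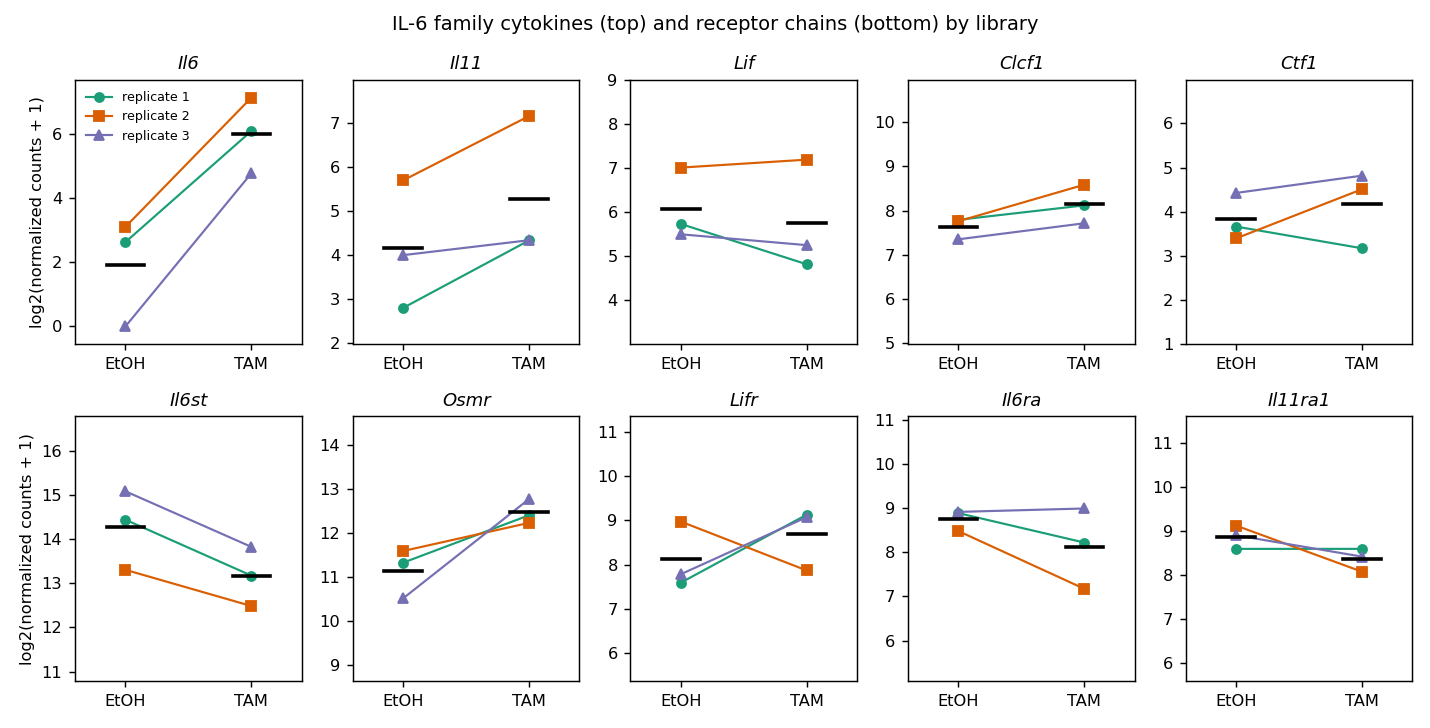
Log2(normalized counts + 1) of each member in each library, cytokines in the upper row and receptor chains in the lower row, with lines joining libraries of the same replicate number and black bars at the group means. All panels span the same number of log2 units: the TAM values of Il6 and Osmr lie above all EtOH values, and the 3 lines of Il6st slope down.

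Il6 was the member with the largest difference. This gene (ENSMUSG00000025746; mm9 chromosome 5, 30339701 to 30346508, plus strand, exons in 5 blocks) had 5.16, 7.56 and 0 normalized counts in the EtOH libraries and 66.7, 138 and 26.2 in the TAM libraries. Every EtOH value stood under the 16.2 normalized counts of the filter and every TAM value above it. The mean was 4.24 ± 3.86 in EtOH and 77.1 ± 56.7 in TAM (SD, n = 3 each), an 18.2-fold difference of means. Replicate 2 was the highest and replicate 3 the lowest library in both groups. For the log2 fold change of 4.08, limma gave a standard error (SE) of 0.97 with an adjusted p of 0.170, and the block fit an SE of 0.46 with an adjusted p of 0.0332. Within the pairs of replicates 1, 2 and 3 the log2 difference was 3.46, 4.02 and 4.77, higher in TAM in 3 of 3 pairs. Among all genes tested Il6 stood 16th from the top by log2 fold change. Its size depends on the added constant, with a log2 fold change of 5.29 when 0.1 was added in place of 1 and of 2.42 when 10 was added. With 1 library left out it ranged from 3.13, without EtOH replicate 3 (the library at 0), to 4.69, without TAM replicate 3 (4.68 without EtOH replicate 2).

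The sequences before the start sites of Il6, Osmr and Il6st are shown because these members had the largest positive difference among the cytokines, the largest positive one among the receptor chains and the largest negative one of all. They are RefSeq promoters (table build GRCm38.p6), each found once by exact match on its mm9 chromosome, and run 5′ to 3′ from 250 bases before the start site to 10 after it. Il6 is chr5:30339404-30339663 on the plus strand, with its RefSeq start site 47 bases upstream of the annotated start of the gene in mm9. Osmr is chr15:6824304-6824563 on the minus strand. Il6st is chr13:113254028-113254287 on the plus strand, with its RefSeq start site 10938 bases upstream of the annotated start of the gene in mm9. Capitals mark matches, on either strand, to 5 motifs: NF-kB (GGANTTTCC), C/EBP (TTNNGCAA), AP-1 (TGANTCA), the CRE core (TGACGT) and STAT (TTCNNNGAA).
Il6: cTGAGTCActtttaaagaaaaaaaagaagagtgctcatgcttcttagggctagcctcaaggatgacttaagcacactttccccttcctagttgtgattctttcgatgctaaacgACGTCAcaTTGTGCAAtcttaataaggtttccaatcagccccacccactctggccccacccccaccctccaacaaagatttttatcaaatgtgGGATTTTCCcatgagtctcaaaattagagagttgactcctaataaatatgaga
Osmr: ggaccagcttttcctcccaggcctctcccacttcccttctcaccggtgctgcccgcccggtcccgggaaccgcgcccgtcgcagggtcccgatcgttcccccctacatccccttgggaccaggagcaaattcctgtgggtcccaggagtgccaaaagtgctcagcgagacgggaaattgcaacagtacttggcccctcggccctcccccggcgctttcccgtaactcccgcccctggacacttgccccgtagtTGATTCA
Il6st: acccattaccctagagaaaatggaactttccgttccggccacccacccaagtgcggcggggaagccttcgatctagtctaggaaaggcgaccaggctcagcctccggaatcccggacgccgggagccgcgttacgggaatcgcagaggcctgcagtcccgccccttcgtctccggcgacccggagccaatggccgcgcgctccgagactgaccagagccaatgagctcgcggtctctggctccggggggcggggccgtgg
Positions were counted from the RefSeq start site as position 0. The Il6 window holds an AP-1 match at −249, a CRE core at −136, a C/EBP match at −128 and an NF-kB match at −43. The Osmr window holds an AP-1 match at 3 and the Il6st window none of the 5 motifs. Over 32851 RefSeq promoter windows of 300 bases, which reach 50 bases past the start, NF-kB was found in 1.25%, C/EBP in 10.8%, AP-1 in 7.81%, the CRE core in 7.51% and STAT in 8.30%. Of the members with a window, AP-1 was also found for Il11 and Lif, NF-kB, C/EBP and the CRE core for Il6 alone, and STAT for none. The table holds no window for Clcf1. The Il6 sequence is also the poorest of the 3 in G and C, at 41.9% against 64.6% for Osmr and 66.9% for Il6st. The matches are a description of letters and were not tested for binding.

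Of the other cytokines, Il11 (ENSMUSG00000004371; chromosome 7, 4724669 to 4734460, minus strand), a cytokine linked to fibroblast activation and fibrosis, had 5.94, 50.6 and 14.9 normalized counts in EtOH and 19.1, 141 and 19.1 in TAM. It was highest in replicate 2 of both groups, and the groups overlapped. The pair differences were 1.53, 1.46 and 0.34 on the log2 scale, higher in TAM in 3 of 3 pairs, and the log2 fold change was 1.11 with an SE of 1.00 (adjusted p = 0.679) and of 0.40 with the block (adjusted p = 0.265). Single libraries moved it, to 0.17 without TAM replicate 2, 0.43 without EtOH replicate 1 and 1.87 without EtOH replicate 2. A stretch of 7.89% of the Il11 transcript is at least 95% identical to Commd7, so a few of its reads may be shared.

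Lif (ENSMUSG00000034394; chromosome 11, 4157560 to 4172517, plus strand), which maintains mouse pluripotent cells in culture and acts on many tissues, had 52.1, 128 and 44.1 normalized counts in EtOH and 27.2, 145 and 37.0 in TAM. Replicate 2 was again the highest library of each group, and 1 of 3 pairs was higher in TAM. This made a log2 fold change of −0.33 (SE 0.69, adjusted p = 0.880), and its sign turned when EtOH replicate 2 or TAM replicate 1 was left out (0.14 in each case).

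Clcf1 (ENSMUSG00000040663; chromosome 19, 4214238 to 4223490, plus strand), a ligand that acts on neurons and B cells, had 220, 216 and 162 normalized counts in EtOH and 277, 384 and 209 in TAM. It was higher in TAM in 3 of 3 pairs, by 0.33, 0.83 and 0.36 on the log2 scale, yet TAM replicate 3 stood below 2 of the EtOH libraries. Its log2 fold change came to 0.51 (SE 0.27, adjusted p = 0.484, and 0.300 with the block). Ctf1 (ENSMUSG00000042340; chromosome 7, 134856250 to 134861699, plus strand), known for its action on heart muscle cells, stayed low, with 11.7, 9.51 and 20.5 normalized counts in EtOH and 7.99, 21.8 and 27.2 in TAM. Its groups overlapped and its log2 fold change came to 0.34 (SE 0.60, adjusted p = 0.853). Ctf2, on the other strand, overlaps 5.95% of the Ctf1 exon bases and was listed at 0 to 3.26 normalized counts.

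**Figure D2:**
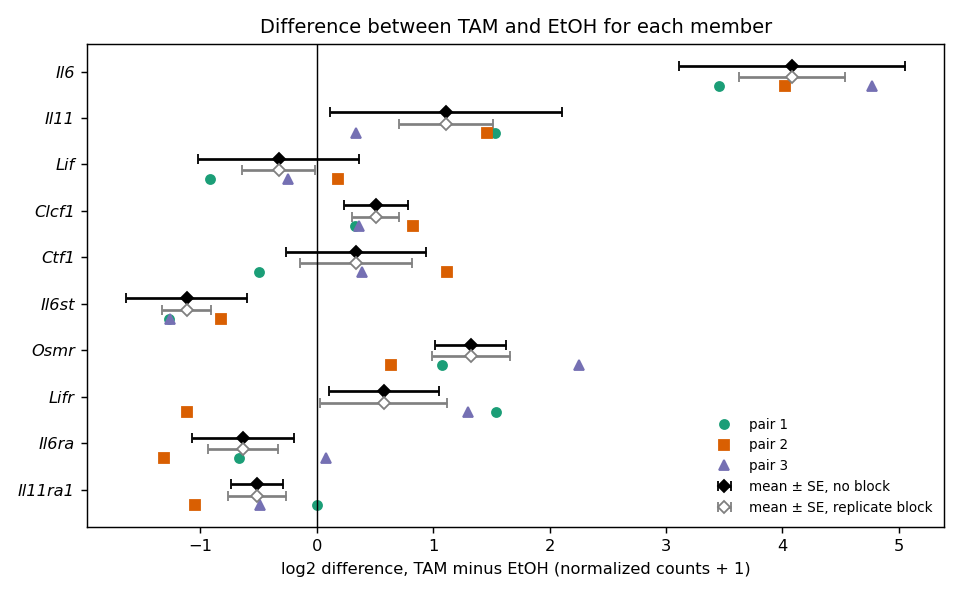
Log2 difference between TAM and EtOH for each member, with diamonds and bars for the limma estimate and its standard error without (black) and with (grey) the replicate block, and coloured symbols for the 3 same-numbered pairs. The 3 pairs of Il6, Il11, Clcf1 and Osmr lie above 0 and those of Il6st below it, whereas the pairs of Lif, Ctf1, Lifr and Il6ra fall on both sides.

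Among the receptor chains, the shared chain gp130 was the most abundant and was lower in TAM. Il6st (ENSMUSG00000021756; chromosome 13, 113265216 to 113297068, plus strand, exons in 15 blocks) had 22284, 10137 and 34852 normalized counts in EtOH and 9255, 5737 and 14539.95 in TAM. Replicate 2 was the lowest library and replicate 3 the highest in each group, and the groups overlapped because TAM replicate 3 stood above EtOH replicate 2. The mean was 22424 ± 12358 in EtOH and 9844 ± 4431 in TAM (SD, n = 3), 2.28-fold lower in TAM. The pair differences of −1.27, −0.82 and −1.26 were close to each other, and the log2 fold change of −1.12 had an SE of 0.52 (adjusted p = 0.411) and, with the block, of 0.21 (adjusted p = 0.0860), past the threshold in neither fit.

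Osmr differed in the other direction. This gene (ENSMUSG00000022146; chromosome 15, 6763577 to 6824313, minus strand, exons in 18 blocks), which binds oncostatin M together with gp130, had 2571, 3089.81 and 1467 normalized counts in EtOH and 5422, 4809 and 6997 in TAM. The lowest TAM library stood above the highest EtOH library. The mean was 2376 ± 829 in EtOH and 5743 ± 1129 in TAM (SD, n = 3), 2.42-fold higher, and the pair differences were 1.08, 0.64 and 2.25 on the log2 scale. Over all genes the log2 fold change of 1.32 did not pass the threshold, with an SE of 0.31 (adjusted p = 0.160) and of 0.34 with the block (adjusted p = 0.156). With limma's weights for single libraries it was 1.72 (adjusted p = 0.0164), in a fit that called 742 genes in place of 29.

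Lifr (ENSMUSG00000054263; chromosome 15, 7079559 to 7147489, plus strand), the chain for LIF and the cardiotrophins, had 191, 502 and 219 normalized counts in EtOH and 560 (559.53), 232 and 538 in TAM. Replicates 1 and 3 were higher in TAM, by 1.54 and 1.30 on the log2 scale, and replicate 2 was lower, by −1.11. Over the 3 pairs the log2 fold change came to 0.58 (SE 0.47, adjusted p = 0.648, and 0.647 with the block). With limma's library weights, where 742 genes were called, it was 1.23 (adjusted p = 0.0393). The block fit was also made with each pair left out, alternatives chosen after seeing the data. For Lifr it gave 0.09 without pair 1 (adjusted p = 0.961), 1.42 without pair 2 (0.0119) and 0.22 without pair 3 (0.986). For Osmr it gave 1.45 without pair 1 (adjusted p = 0.180), 1.66 without pair 2 (0.0354) and 0.86 without pair 3 (0.524). For Il6st it gave −1.04 without pair 1 (adjusted p = 0.254), −1.26 without pair 2 (0.0305) and −1.04 without pair 3 (0.448). In these fits the 3 chains passed the threshold only where pair 2 was left out, which was also where 924 genes were called in place of 192.

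The alpha chains gave no call. Il6ra (ENSMUSG00000027947; chromosome 3, 89673246 to 89717084, minus strand), the chain that binds IL-6 itself, had 473, 357 and 483 normalized counts in EtOH and 298, 143 and 509.53 in TAM. The groups overlapped, with TAM replicate 3 the highest of all 6 libraries and TAM replicate 2 the lowest. Its log2 fold change came to −0.63 (SE 0.44, adjusted p = 0.587, and 0.367 with the block). Il11ra1 (ENSMUSG00000073889; chromosome 4, 41647021 to 41716347, plus strand), the chain for IL-11, had 386, 556 and 478 normalized counts in EtOH and 386, 269 and 341 in TAM. The libraries of replicate 1 were nearly equal (385.56 against 385.61), while the others were lower in TAM by −1.05 and −0.48 on the log2 scale, for a log2 fold change of −0.51 (SE 0.22, adjusted p = 0.386). Near copies of this gene (Gm13305, Gm2002 and Il11ra2) match 82.3% of its transcript (stretches of 100 bases and longer that are at least 95% identical), and all 3 were listed at 0 in all 6 libraries, so reads that fit several copies may be missing and the level of Il11ra1 is uncertain.

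**Figure D3:**
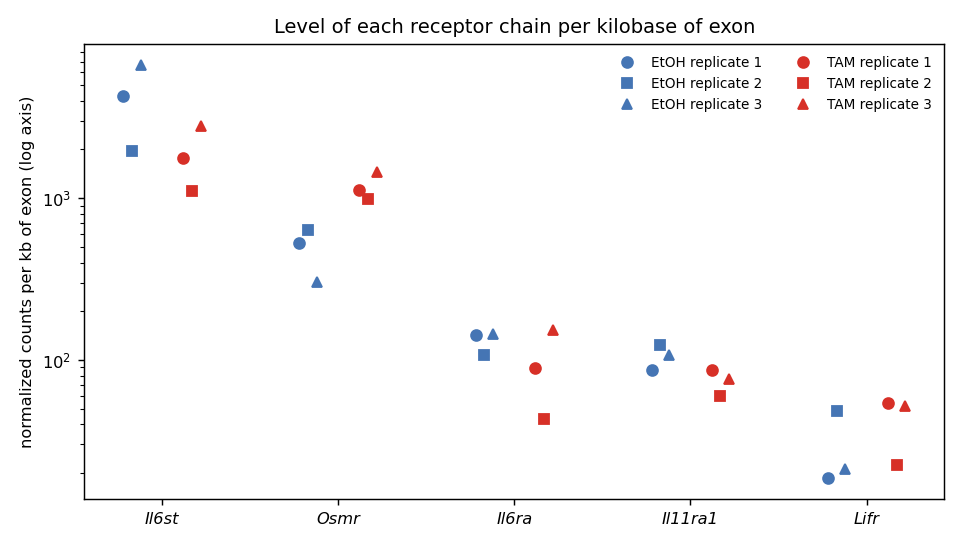
Normalized counts per kilobase of exon of the 5 receptor chains in each library on a log axis, with EtOH in blue, TAM in red and a symbol for each replicate number. Il6st lies above Osmr in every EtOH library, at 1947 to 6693 against 303 to 639, and the ranges meet in TAM, at 1102 to 2792 against 995 to 1447.

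Levels between genes were compared as normalized counts per kilobase of exon. The union of annotated exons was 4471 bases for Il11ra1 and 3713 for Clcf1, whose longest coding transcripts have 2009 and 1878 bases. The levels of both genes depend on the length used. The place of Il11ra1 relative to Il6ra is therefore uncertain, also because reads that fit its near copies may be missing. In EtOH the order of mean levels of the receptor chains was Il6st (4307), Osmr (491), Il6ra (131), Il11ra1 (106) and Lifr (29.4). Il6ra and Il11ra1, at 107 to 144 and 86.2 to 124, overlapped, and the other neighbours in this order did not. In TAM the order of the means was the same, at 1891, 1188, 94.8, 74.2 and 42.9, but Il6st now overlapped with Osmr and Il6ra with Il11ra1. Among the cytokines in EtOH, Clcf1 had the highest mean, 53.7 normalized counts per kilobase, followed by Il11 (18.0), Lif (17.2), Ctf1 (10.3) and Il6 (3.90), and the ranges of Il11, Lif and Ctf1 overlapped. In TAM the order was Clcf1 (78.0), Il6 (70.9), Il11 (45.2), Lif (16.0) and Ctf1 (14.1), so that Il6 went from the last place to the second. In TAM the ranges of all neighbours in this order overlapped, at 56.2 to 103 for Clcf1, 24.1 to 127 for Il6 and 14.5 to 107 for Il11.

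Because a ratio of 2 genes within a library does not change with a factor common to the whole library, each receptor chain was also set against Il6st. Low values within a library differed between genes, such as 0.63 for Ptprt and 0.76 for Plin1 in EtOH replicate 1. The authors' normalization may therefore not be a common factor for each library. Any part of it that differs between genes would remain in the ratios. The log2 ratio of Osmr to Il6st was −3.12, −1.71 and −4.57 in EtOH and −0.77, −0.25 and −1.06 in TAM. In plain terms there were 8.67, 3.28 and 23.7 normalized counts of Il6st for each of Osmr in EtOH, and 1.71, 1.19 and 2.08 in TAM. The groups did not overlap, and the difference of 2.44 on the log2 scale (pairs 2.34, 1.46 and 3.51) had p = 0.1 by a two-sided exact permutation test, the smallest p that 3 against 3 libraries allow (0.4 after adjustment over the 4 ratios). Lifr relative to Il6st was higher in TAM in replicates 1 and 3 (pair differences 2.81 and 2.56) and not in replicate 2 (−0.29), with a difference of 1.69 (exact permutation p = 0.3). For Il6ra and Il11ra1 the differences were 0.48 and 0.61 (exact permutation p = 0.4 each), with replicate 2 again lower in TAM (−0.49 and −0.22), so these values lay within the spread between libraries.

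**Figure D4:**
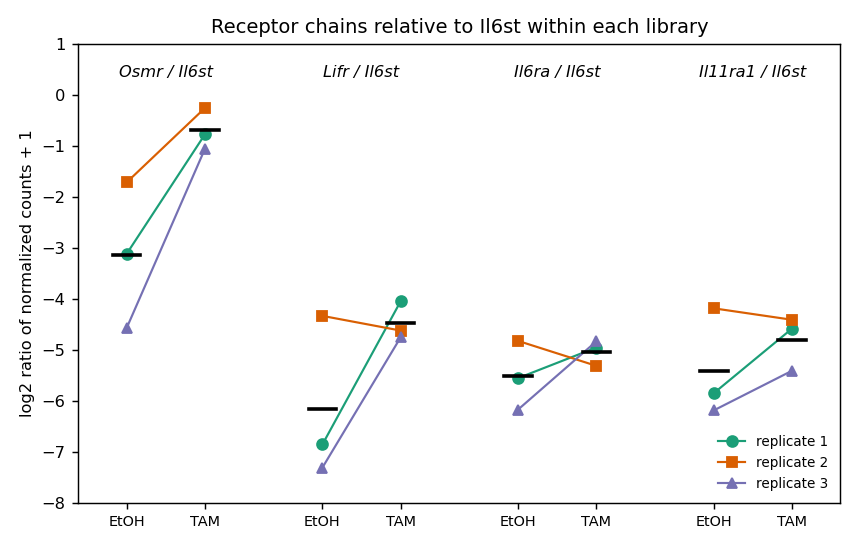
Log2 ratio of normalized counts + 1 of Osmr, Lifr, Il6ra and Il11ra1 to Il6st in each library, with lines joining same-numbered libraries and black bars at the group means. The 3 lines of the Osmr ratio go up to between −1.06 and −0.25 in TAM, and the line of replicate 2 falls for the other chains.

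The genes closest to a member over the 6 libraries were listed as a description. By Pearson's r of log2(normalized counts + 1), Il6 was most like As3mt (0.996), Prl2c3 (0.996), Vnn1 (0.992), Hp (0.992) and Slc6a17 (0.989). Osmr was most like Sidt2 (0.993), Ccdc55 (0.984), H2-Q1 (0.983), 1700017B05Rik (0.982) and Rasa3 (0.979), and Il11 most like 2900026A02Rik (0.994), Cyld (0.990), Id2 (0.986), Sema7a (0.986) and 8030462N17Rik (0.984). With 6 libraries a high r is weak evidence of likeness: of the 11877 genes tested, 314, 107 and 162 had r over 0.9 with Il6, Osmr and Il11. A group difference or a high replicate that 2 genes share may raise r, which was not tested. Between members r was 0.906 for Il6 and Clcf1, 0.874 for Il6 and Osmr, −0.908 for Il6 and Il6st, and 0.754 for Il11 and Lif. The strongest r between members, −0.919, was that of Clcf1 and Il6ra. These pairs were picked from all pairs of members without a rule.

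Most relatives of the family were too low to test. Of 12 relatives listed, 11 were found in the table by name and 3 passed the filter. The relative not found by name, Il11ra2, is listed there as Gm13305, at 0 in all 6 libraries. Lepr, the leptin receptor, had a log2 fold change of 0.81 (adjusted p = 0.608) and Il27, a subunit of interleukin 27, of −0.77 (adjusted p = 0.628). Osm, which encodes the ligand of Osmr, was listed at 0 in all 6 libraries, and Cntfr, the alpha chain for CNTF and Clcf1, had 1.32, 12.4 and 3.43 normalized counts in EtOH and 24.4, 35.2 and 13.1 in TAM without passing the filter. These last 2 genes were picked after their values were seen.

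The genes that carry the signal of gp130 gave no call. All 18 signalling genes listed were tested and 0 were called in either limma fit. At an unadjusted p under 0.05 without the block there were 0 higher and 1 lower, the kinase Mapk3, against 6.67% and 6.70% of all genes tested. The median log2 fold change of the 18 was 0.00. The largest differences were those of the phosphatase Ptpn11 (0.60, adjusted p = 0.378), the adaptor Gab2 (0.36, adjusted p = 0.597), Mapk3 (−0.86, adjusted p = 0.268) and the kinase Yes1 (−0.28, adjusted p = 0.568). Stat3, picked besides the rule, had a log2 fold change of 0.33 (adjusted p = 0.687). RNA levels do not measure the phosphorylation through which this pathway acts.

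Among 14 genes of feedback and receptor shedding, 12 were tested and 0 were called in either limma fit. An unadjusted p under 0.05 without the block was reached by 1 higher and 1 lower gene, against 6.67% and 6.70% of all genes tested. The median log2 fold change of the 12 was 0.04. Ptpn1, a phosphatase that dampens JAK signalling, had a log2 fold change of 0.67 (adjusted p = 0.183) with TAM values above all EtOH values. Cish, a feedback inhibitor, had one of 1.37 (adjusted p = 0.464) and the phosphatase Ptpn2 one of −0.39 (adjusted p = 0.592). Socs2, an inhibitor of cytokine and growth hormone signalling, had 626, 605 and 2108 normalized counts in EtOH and 37.6, 439.86 and 226 in TAM, all below EtOH (log2 fold change −2.57, SE 0.91, adjusted p = 0.295). Socs3, the inhibitor that binds gp130 and picked besides the rule, had a log2 fold change of 0.67 (adjusted p = 0.638).

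Genes often named as targets of gp130 and STAT3 were listed as 28, of which 27 were in the table and tested. Without the block 1 was called higher and 0 lower, against 0.168% and 0.0758% of all genes tested. With the block 4 were called higher and 0 lower, against 1.00% and 0.615%. Positive log2 fold changes were seen in 21 of the 27, with a median of 0.89 (−0.03 over all genes). An unadjusted p under 0.05 without the block was reached by 8 higher and 0 lower targets, against 6.67% and 6.70% of all genes tested. The list was chosen with earlier results of these data known, so these counts are a description and not independent support. The 4 called are acute-phase or secreted proteins. Lcn2, which encodes the iron-scavenging lipocalin 2, had 5.94, 8.52 and 2.50 normalized counts in EtOH and 110.05, 112 and 68.8 in TAM, a log2 fold change of 3.96 (SE 0.50, adjusted p = 0.0427, and 0.0237 with the block). Like Il6, it passed the filter on low values only through its TAM libraries. Saa3, an acute-phase serum amyloid, had 38.0, 86.8 and 21.1 in EtOH and 11472, 5533 and 938 in TAM, a log2 fold change of 6.53 (adjusted p = 0.0588, and 0.0212 with the block). Hp, which encodes haptoglobin, had 10.6, 20.9 and 1.62 in EtOH and 324, 554 and 124 in TAM. Its log2 fold change was 5.01 (adjusted p = 0.0915, and 0.0147 with the block). Hp was over the filter in 1 EtOH and 3 TAM libraries, so its fold change rests on low EtOH values. Timp1, an inhibitor of metalloproteinases, had a log2 fold change of 1.85 (adjusted p = 0.291, and 0.0384 with the block). On the other side, Fgl2 had a log2 fold change of −1.29 (adjusted p = 0.629) and the kinase Pim3 one of −0.89 (adjusted p = 0.623). Many of these genes also answer to other inflammatory signals, and the part of gp130 in their levels was not tested.

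Of 12 genes that induce Il6 or bind its promoter, 8 were tested and 0 were called in either limma fit. At an unadjusted p under 0.05 without the block there were 0, where 6.67% of all genes tested were higher and 6.70% lower. With the block there were 2 higher and 0 lower, against 8.64% and 8.32% of all genes tested. The median log2 fold change of the 8 was 0.30. The prostaglandin synthase Ptgs2 had 144, 2301 and 23.8 normalized counts in EtOH and 508, 8358 and 403 in TAM, a log2 fold change of 2.57 (adjusted p = 0.587, and 0.0854 with the block). Fosl1, an AP-1 subunit, had 79.4, 912 and 29.1 in EtOH and 153, 1132 and 104 in TAM, a log2 fold change of 1.02 (adjusted p = 0.794). Both were highest in replicate 2 of each group, as were Il6, Il11 and Lif. Nfkb1, a subunit of NF-kB, had a log2 fold change of −0.01 (adjusted p = 0.989). Areg, Il1a, Il1b and Tnf did not pass the filter.

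Markers of other cell types were read in the same libraries. Fibroblast markers summed to between 1633950 and 1790790 normalized counts in EtOH and between 736065 and 1155500 in TAM. Most of each sum came from the collagens Col1a1, Col1a2 and Col3a1. Of the 12, 7 lay below and 1, Thy1, above all EtOH values, against 11.4% and 9.19% of all genes tested. The groups overlapped for Pdgfra, Pdgfrb, Vim and S100a4. By limma 0 were called. An unadjusted p under 0.05 without the block was reached by 1 higher and 4 lower fibroblast markers, against 6.67% and 6.70% of all genes tested. Of the 11 macrophage and leukocyte markers in the table, 4 (Csf1r, Itgam, Lyz2 and Mrc1) had TAM values above all EtOH values. Of these, Itgam and Mrc1 did not pass the filter, at 0 to 3.11 and 0 to 13.4 normalized counts over the 6 libraries. Csf1r and Lyz2 were among the 5 markers tested, of which 0 were called in either limma fit. For all genes tested the share with TAM values above all EtOH values was 9.19%. An unadjusted p under 0.05 without the block was reached by 2 higher (Lyz2 and Cd14) and 0 lower of these markers, against 6.67% and 6.70% of all genes tested. Cd14 had 27.1, 65.8 and 29.1 normalized counts in EtOH and 96.1, 82.1 and 65.4 in TAM. Cd68 had 52.1, 352 and 97.4 in EtOH and 49.55, 90.5 and 116 in TAM. The summed levels of the macrophage and leukocyte markers were 215 to 553 in EtOH and 397 to 570 (569.61) in TAM. Emr1 and Tyrobp, markers of macrophages and myeloid cells, were at 0 in all 6 libraries. Ptprc, the pan-leukocyte marker CD45, was listed at 0.74, 0 and 0 in EtOH and 1.53, 5.01 and 0 in TAM. Endothelial markers summed to between 85.9 and 241 in EtOH and between 15.7 and 35.1 in TAM, and most of the EtOH sum was Kdr, with 205, 68.7 and 116 normalized counts in EtOH and 4.84, 7.53 and 14.0 in TAM. Kdr was called lower with the block (log2 fold change −3.71, adjusted p = 0.0608, and 0.0488 with the block) and passed the filter only through its EtOH libraries. The other endothelial markers overlapped between the groups, and Pecam1 had 3.49 to 4.76 normalized counts in EtOH and 2.83 to 11.3 in TAM. The summed levels of lymphocyte, keratinocyte, melanocyte and adipocyte markers overlapped between the groups. Most of the keratinocyte sum was Krt10. Trp63 was below all EtOH values in TAM (25.1, 25.8 and 24.9 against 7.15, 2.50 and 6.87, limma adjusted p = 0.187). Like Kdr, it passed the filter only through its EtOH libraries. Krt5 was above all EtOH values in TAM (0.64, 0 and 0 against 2.96, 7.53 and 13.4, under the filter). Muscle markers summed to 1.84 to 9.58 in EtOH and 9.11 to 15.04 in TAM. The part of other cell types in the levels of the members was not tested.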

How the data were processed

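The authors mapped poly(A) RNA-seq reads to the mouse genome (mm9) with TopHat, assigned them to annotated genes with htseq-count and assessed differential expression with edgeR and TMM normalization. Strand settings are not given in the sources used here. The deposited signal is 1 table with a normalized count for each gene in each library, most of which are not whole numbers, so count models were not used. Read depth is unknown and no counting intervals were computed; precision is that of 3 libraries per group.

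Groups and replicate numbers came from the sample labels, and the rows of the 10 members were taken by name. The members and the gene lists were chosen with earlier results of these data known. limma 3.58.1 (R 4.3.3) was fitted with an intensity trend to log2(value + 1) of the 11877 genes that reached 1 c.p.m. in 3 or more libraries, without further scaling and with Benjamini-Hochberg adjustment. The main fit had no block. Deviations from the group means correlated across genes with r = 0.241, 0.287 and 0.422 between libraries of the same replicate number and between −0.31 and 0.0374 otherwise. The numbers, from the labels, were therefore taken to pair the libraries and used as a block in a further fit.

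All members were named. From each list the text named up to 2 genes with the largest positive and 2 with the largest negative log2 fold change among those tested, plus any gene called, and the 5 genes most like Il6, Osmr and Il11. A result among the relatives of the family is not reported here. Positions came from the mm9 annotation, which matched the deposited intervals for 8 of 10 members. The deposited intervals of Il11 and Lifr ended at 4729743 and 7141743, before the annotated ends of 4734460 and 7147489 given above. Their levels per kilobase are therefore less certain. Levels per kilobase used the union of annotated exons. Transcripts were matched with BLAST 2.17.0. Promoters came from RefSeq (GRCm38.p6). Python 3.11.15, pandas 2.3.3 and matplotlib 3.10.9 were used. Alternatives were other scalings, pseudocounts and filters, library weights, the block, and leaving out libraries. Proteins and tissue experiments were not analysed here.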

Additional observations from a re-analysis of the deposited data

How the results depend on the processing

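Over the alternatives tried, Il6, Osmr, Il11, Clcf1 and Lifr kept a positive log2 fold change and Il6st, Il6ra and Il11ra1 a negative one, with ranges of 2.42 to 5.29 for Il6, 0.86 to 1.72 for Osmr and −1.60 to −0.71 for Il6st and adjusted p-values of 0.0292 to 0.426, 0.0164 to 0.524 and 0.0305 to 0.766. Lif, at −1.05 to 0.14 over libraries left out, turned to 0.14 without EtOH replicate 2 and without TAM replicate 1, and Ctf1 to −0.0502 in the block fit without pair 2. The replicate block called Il6, so 1 member in place of 0, and raised the genes called from 29 to 192 and the members at an unadjusted p under 0.05 from 2 to 4; it changed no other call on a member. With library weights 3 members (Il6, Osmr and Lifr) and 742 genes were called and 4 members had an unadjusted p under 0.05. Without a filter 17 genes were called, and with at least 10 in every library 18, where Il6, Il11 and Ctf1 were not tested and 1 member had an unadjusted p under 0.05. Scaling libraries to the same sum moved the median log2 fold change of all genes from −0.03 to 0.08.

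Leaving out 1 library at a time, the genes called ranged from 0 to 17 (0, 2 and 0 without EtOH replicates 1, 2 and 3, and 0, 5 and 17 without TAM replicates 1, 2 and 3), the members at an unadjusted p under 0.05 from 2 to 5 (5 without TAM replicate 3) and the members without overlap from 2 to 5 (5 without EtOH replicate 2 or TAM replicate 3, 4 without TAM replicate 1 or 2), and no member was called. Over all genes tested the share without overlap was 20.6% with all libraries and 24.8% to 35.1% with 1 left out, and the share at an unadjusted p under 0.05 was 13.4% and 8.23% to 14.0%. In the block fit without pair 1, 2 or 3, an alternative chosen after seeing the data, 1, 4 and 1 members and 201, 924 and 104 genes were called, with 4, 4 and 5 members at an unadjusted p under 0.05. The causes were not tested. With 3 libraries a group and unknown depth, low values such as those of Il6 in EtOH and of Ctf1 carry the widest relative error.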
